A study of Mus musculus with 10 samples.

Results

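Ifng encodes interferon-gamma, the cytokine that defines iNKT1 cells, and the chromatin around it was examined through every accessible region that overlapped the window from 100 kb before to 100 kb after the gene (mm10, chr10:118441046-118445892, plus strand). The rule used position alone, and 33 of the 94823 regions in the deposited table met it. Each value is the number of insertions that a transposase made in a region in ATAC-seq, an assay that marks open DNA with sequencing adapters. The cells were invariant natural killer T (iNKT) cells sorted from the thymus as CD27+ cells, with CD122 present on the cells taken as iNKT1 and absent from those taken as iNKT2. They came from BALB/c mice or from SKG mice, which are on the BALB/c background and carry a hypomorphic mutation of Zap70, the kinase that passes on the T cell receptor signal. Each genotype gave 2 libraries of iNKT1 and 3 of iNKT2 cells, 10 in all, and the mice were age-matched adults by the study's methods. The Zap70 mutation was present in every cell of the SKG mice, and no treatment is named for any group. How many mice gave each library is not given in the sources used here, so the p-values measure the spread between these libraries.

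iNKT cells carry a nearly invariant T cell receptor that recognises lipids on CD1d, and they commit to a cytokine programme in the thymus. Some mature iNKT cells stay there as long-term residents. iNKT1 cells depend on the T-box factor T-bet and make interferon-gamma, while iNKT2 cells make IL-4. In T and NK cells Ifng is described as controlled by its promoter and by conserved noncoding sequences scattered over a long stretch on both sides of the gene, to which T-bet, Runx, STAT and AP-1 factors bind. CNS-22, a conserved sequence about 22 kb before the gene, is one that has been described as needed for Ifng transcription. Downstream lies Ifngas1, a long noncoding RNA on the opposite strand that has been linked to interferon-gamma production.

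Regions are named here by the distance of their centre from the Ifng start. They were 300 to 985 bp wide, with a median of 355 bp, and 25 of the 33 lay within 50 kb of the gene. In the GENCODE M21 annotation, 5 regions overlapped Ifng itself. These were the start region (chr10:118440482-118441466, which holds the promoter, the 5′ UTR and the first coding bases) and those at 1.10, 1.68, 2.08 and 2.96 kb downstream, which lie in introns except that the region at 1.68 kb also holds coding sequence. A gene model still to be experimentally verified, Gm49751, lies inside Ifng on the same strand and covers the same regions. Another 9 regions were centred upstream, none of them beyond 70.4 kb, and 19 lay beyond the end of the gene. Of these 19, 7 fell in introns of Ifngas1 (chr10:118502035-118556525). The next protein-coding genes were Iltifb, 146.0 kb before Ifng, and Dyrk2, 410.0 kb after it.

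The sequences below show the regions that separated iNKT1 from iNKT2 cells in both genotypes and reached a mean of at least 10 CPM in some group, a limit chosen after the levels were seen, together with the stretch just before the Ifng start. They are the central 300 bases of each region on the plus strand of the C57BL/6J reference (GRCm38), not of the BALB/c genome. Capitals mark matches, on either strand, to short motifs. The letters searched were GGTGTGA for T-box factors, TGTGGT for Runx, AGGAAGT for ETS, TTCNNNGAA for the STAT family, TGGAAAA for NFAT, TGANTCA for AP-1, GCGTGGG for Egr, CTTTGA for Tcf, AGATAA for the GATA family and GGGANTTTC for NF-kB. No marked matches overlapped. A match describes letters and shows no binding.
36.4 kb upstream (chr10:118404503-118404802): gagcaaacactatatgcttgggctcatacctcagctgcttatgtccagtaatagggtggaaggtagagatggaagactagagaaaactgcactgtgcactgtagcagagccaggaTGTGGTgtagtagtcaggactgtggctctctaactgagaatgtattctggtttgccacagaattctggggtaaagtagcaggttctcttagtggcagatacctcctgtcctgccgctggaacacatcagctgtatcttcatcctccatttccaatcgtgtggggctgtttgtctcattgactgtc
5.49 kb upstream (chr10:118435402-118435701): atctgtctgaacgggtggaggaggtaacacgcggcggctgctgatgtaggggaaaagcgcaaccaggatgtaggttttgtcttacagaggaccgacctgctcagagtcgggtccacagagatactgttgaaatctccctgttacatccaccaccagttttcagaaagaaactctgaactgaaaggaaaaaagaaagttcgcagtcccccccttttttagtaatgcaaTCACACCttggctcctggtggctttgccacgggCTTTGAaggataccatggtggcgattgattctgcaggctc
The 250 bases before the Ifng start (chr10:118440796-118441045): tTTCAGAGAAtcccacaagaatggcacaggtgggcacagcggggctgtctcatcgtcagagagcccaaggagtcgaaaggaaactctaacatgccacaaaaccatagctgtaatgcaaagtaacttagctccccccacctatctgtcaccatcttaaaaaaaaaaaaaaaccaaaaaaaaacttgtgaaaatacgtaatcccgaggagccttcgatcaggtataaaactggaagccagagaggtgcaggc
1.10 kb downstream (chr10:118441998-118442297): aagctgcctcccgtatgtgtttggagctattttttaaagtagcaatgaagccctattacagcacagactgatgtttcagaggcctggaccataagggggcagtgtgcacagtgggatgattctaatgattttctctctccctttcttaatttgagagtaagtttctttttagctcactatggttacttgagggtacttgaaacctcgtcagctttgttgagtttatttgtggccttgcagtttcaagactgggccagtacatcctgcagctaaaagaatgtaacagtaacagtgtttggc
19.3 kb downstream (chr10:118460216-118460515): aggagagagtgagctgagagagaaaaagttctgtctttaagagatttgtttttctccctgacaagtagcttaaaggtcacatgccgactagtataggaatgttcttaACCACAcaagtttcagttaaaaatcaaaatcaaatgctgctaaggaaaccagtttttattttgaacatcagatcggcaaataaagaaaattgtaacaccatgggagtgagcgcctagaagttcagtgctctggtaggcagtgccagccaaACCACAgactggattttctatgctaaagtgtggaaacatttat
28.1 kb downstream (chr10:118468982-118469281): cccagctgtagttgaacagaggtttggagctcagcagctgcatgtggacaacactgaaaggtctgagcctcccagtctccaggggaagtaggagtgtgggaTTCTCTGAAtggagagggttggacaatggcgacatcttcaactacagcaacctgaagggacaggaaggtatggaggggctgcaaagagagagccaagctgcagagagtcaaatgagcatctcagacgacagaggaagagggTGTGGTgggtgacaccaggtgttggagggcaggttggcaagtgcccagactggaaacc
40.6 kb downstream (chr10:118481520-118481819): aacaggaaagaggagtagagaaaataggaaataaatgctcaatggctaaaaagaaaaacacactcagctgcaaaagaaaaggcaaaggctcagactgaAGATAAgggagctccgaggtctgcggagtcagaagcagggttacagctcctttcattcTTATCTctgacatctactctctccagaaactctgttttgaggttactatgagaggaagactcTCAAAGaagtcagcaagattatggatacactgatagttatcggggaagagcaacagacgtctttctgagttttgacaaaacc
88.8 kb downstream (chr10:118529691-118529990): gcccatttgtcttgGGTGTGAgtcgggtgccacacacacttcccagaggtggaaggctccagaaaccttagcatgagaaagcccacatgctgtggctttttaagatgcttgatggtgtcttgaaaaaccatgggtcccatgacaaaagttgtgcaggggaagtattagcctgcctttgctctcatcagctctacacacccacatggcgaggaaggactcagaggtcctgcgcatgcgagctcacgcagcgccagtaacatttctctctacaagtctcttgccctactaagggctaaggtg

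Among these stretches the T-box letters occurred at 5.49 kb upstream, on the minus strand, and at 88.8 kb downstream. The Runx letters occurred at 36.4 kb upstream, at 28.1 kb downstream and at 2 places in the region 19.3 kb downstream. STAT letters stood 9 bases long at the far end of the promoter stretch and in the region 28.1 kb downstream. The region 40.6 kb downstream held the GATA letters at 2 places and the Tcf letters at 1. The central 300 bases of the region 1.10 kb downstream, in the first intron, held none of the 10 motifs.

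Over all 33 regions, the T-box letters were found in the central 300 bases of 4 (12.1%, against 5.49% of all 94823 regions) and the Runx letters in 15 (45.5%, against 30.3%). AP-1 letters were found in 8 (24.2%, against 10.6%), STAT letters in 4 (12.1%, against 8.75%), Tcf letters in 7 (21.2%, against 21.5%) and GATA letters in 6 (18.2%, against 14.3%). ETS letters were found in 2 (6.06%, against 17.3%), NFAT letters in 2 (6.06%, against 6.55%), NF-kB letters in 1 (3.03%, against 1.32%) and Egr letters in 0 (against 3.68%). The other regions with T-box letters were those at 1.68 and 54.5 kb downstream. A closer comparison is with regions called lower in iNKT2 cells in both genotypes, by the call given below. Of the 10 such members, 2 held T-box, 3 held Runx and 1 held AP-1 letters. Of all 4585 such regions, 16.8%, 53.5% and 15.0% held these letters. With 33 members these shares are descriptions.

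The libraries held 14988590 to 36342635 insertions inside the listed regions, of which 3024 to 14240 fell in the 33 regions around Ifng. Levels are given as CPM, which are insertions scaled by library total and TMM factor, and errors as SD over libraries. The T cell promoters checked (Cd3e, Cd3d, Lck and Zap70) were open in all 10 libraries, with a summed 241.0 to 465.0 CPM. The promoters of Rag1, Rag2 and Ptcra, which mark immature double-positive thymocytes, held no region. Of the B cell promoters Ms4a1 held no region and Pax5 held 1, at 3.40 to 5.82 CPM in iNKT1 and 12.7 to 19.5 CPM in iNKT2 libraries. Of the myeloid promoters Csf1r and Lyz2 held none and Itgam held 1, at 1.22 to 3.91 and 0.00 to 0.951 CPM. The iNKT1 promoters (Tbx21, Il2rb and Cxcr3) summed to 221.0 to 244.0 CPM in iNKT1 and 86.0 to 126.0 CPM in iNKT2 libraries. Most of this sum came from Il2rb. That gene encodes CD122, on which the subsets were sorted, so the sum is not an independent check of the sort. Tbx21 and Cxcr3, not used in the sort, also parted the subsets. Tbx21 held 17.7 to 25.7 CPM in iNKT1 and 4.99 to 9.45 CPM in iNKT2 libraries. Cxcr3 held 36.4 to 46.5 and 7.75 to 9.98 CPM. The sums of the iNKT2 promoters (Gata3, Il4, Il17rb and Zbtb16), mostly from Gata3, overlapped at 301.0 to 351.0 and 275.0 to 338.0 CPM. In BALB/c mice these sums were lower in iNKT2 (275.0 to 288.0 CPM) than in iNKT1 libraries (301.0 to 322.0 CPM). Of the iNKT2 promoters only Il17rb parted the subsets, at 7.89 to 10.6 CPM in iNKT1 and 25.1 to 34.3 CPM in iNKT2 libraries. The means of Gata3 and Zbtb16 were lower in iNKT2 than in iNKT1 cells in both genotypes. The mean of Il4 was higher in iNKT2 in BALB/c and lower in SKG mice, but replicate 1 of each iNKT2 group stood apart. Il4 held 25.5 and 23.4 CPM in BALB/c iNKT1 and 35.0, 22.8 and 22.6 CPM in BALB/c iNKT2 libraries. For SKG mice its values were 40.0 and 30.2 CPM in iNKT1 and 44.2, 22.0 and 20.4 CPM in iNKT2 libraries. The iNKT17 promoters checked (Il23r, Ccr6 and Il17a) summed to 0.321 to 0.835 CPM in iNKT1 libraries. In iNKT2 libraries they summed to 11.8 to 17.4 CPM in BALB/c and 7.87 to 10.7 CPM in SKG mice. The 3 promoters did not move together between BALB/c and SKG iNKT2 cells. Their means were 8.32 and 1.73 CPM at Il17a, 6.05 and 5.08 CPM at Il23r, and 0.937 and 2.72 CPM at Ccr6. The NK cell promoters summed to 69.4 to 88.1 and 4.34 to 11.7 CPM, mostly at Prf1, which encodes perforin, while Klrb1c held no region. The part of these other cells in the results was not tested, and in sorted bulk cells fewer cells with an open region cannot be told apart from less opening per cell.

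Replicate 1 of each iNKT2 group stood above replicates 2 and 3 at most regions called lower in iNKT2. At the 10 Ifng regions called lower in iNKT2 in both genotypes, described next, BALB/c iNKT2 replicate 1 was the highest of its 3 libraries at 8, with a median log2 difference of 0.52 from the other 2, and SKG iNKT2 replicate 1 was the highest at 8, with a median of 0.40. Over all 4585 regions of that kind in the genome the medians were 0.40 and 0.35. At the 2 Ifng regions called higher in iNKT2 in both genotypes, replicate 1 did not stand apart. Their sum was 20.3 CPM in BALB/c iNKT2 replicate 1, against 24.8 and 20.8 in replicates 2 and 3. In SKG iNKT2 cells it was 21.1 CPM against 19.2 and 22.0. Where a region passed the adjusted p in a contrast, calls gained or lost on leaving out either library are given beside its value. A call gained elsewhere is given only in the counts under the processing.

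Levels per kb of region ran in a different order in the subsets. In BALB/c iNKT1 cells the region 21.9 kb upstream came first (88.2 CPM per kb), followed by those at 28.1 kb downstream (68.8), the start (62.3), 5.49 kb upstream (51.7) and 29.6 kb downstream (50.6). The first 3 were the same in SKG iNKT1 cells, at 88.4, 83.2 and 73.7 CPM per kb. In BALB/c iNKT2 cells the region 21.9 kb upstream again came first (67.2 CPM per kb), but the next were those at 40.6 kb (29.7) and 19.3 kb downstream (27.7), and the start region was the 14th of 33 (8.85). SKG iNKT2 cells had the regions 21.9 kb upstream (92.2) and 40.6 kb downstream (41.9) in front, with the start region 14th (8.66). The first and second places in SKG iNKT1 cells, and the regions at 40.6 and 19.3 kb downstream in BALB/c iNKT2 cells, differed by less than the spread between libraries.

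**Figure D1:**
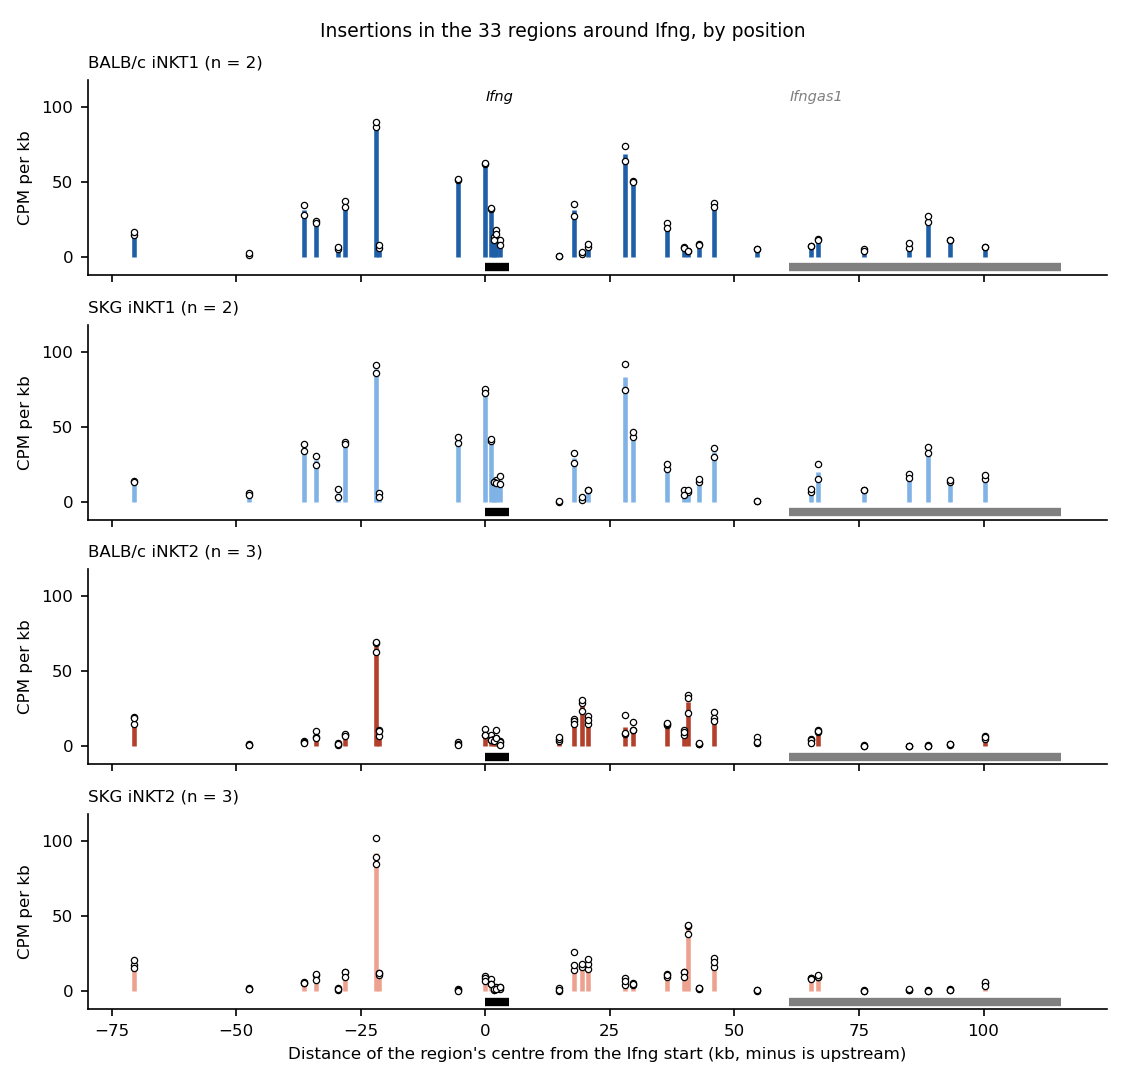
Mean insertions per kb (CPM per kb, bars) and each library (open circles) in the 33 regions, by distance from the Ifng start, in 4 panels for the 4 groups. Black and grey spans below the bars mark Ifng and Ifngas1. The tall bars around the start, 5.49 kb upstream and 28.1 and 29.6 kb downstream in the iNKT1 panels are low in the iNKT2 panels, while the bar 21.9 kb upstream stands in all 4.

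The first question was how the subsets differed at the locus. A region was called at an adjusted p under 0.01 over all regions (edgeR quasi-likelihood test, Benjamini-Hochberg) and at least 4-fold. In BALB/c mice 11 of the 33 regions were called lower in iNKT2 than in iNKT1 cells (33.3%, against 6.36% of all regions) and 3 were called higher (9.09%, against 15.5%). In SKG mice 15 were called lower (45.5%, against 6.96%) and 2 higher (6.06%, against 10.2%). The median log2 change of the 33 was -1.22 in BALB/c and -1.67 in SKG cells, where that of all regions was 0.06 and 0.14. Scaling by library totals alone moved the medians of all regions by about 0.2 to 0.3 on the log2 scale, to 0.34 and 0.32, and those of the 33 to -0.92 and -1.48.

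The same 10 regions were called lower in both genotypes (30.3%, against 4.84% of all regions), and 2 were called higher in both (6.06%, against 7.65%). In the flanks, from 100 to 500 kb on either side, 16 of 78 regions were lower in both (20.5%) and 3 higher in both (3.85%). Within the window the 10 were spread from 36.4 kb upstream to 93.2 kb downstream, and 4 of them lay in introns of Ifngas1. Called in 1 genotype were 6 regions lower and 1 higher, and 14 were called in neither.

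**Figure D2:**
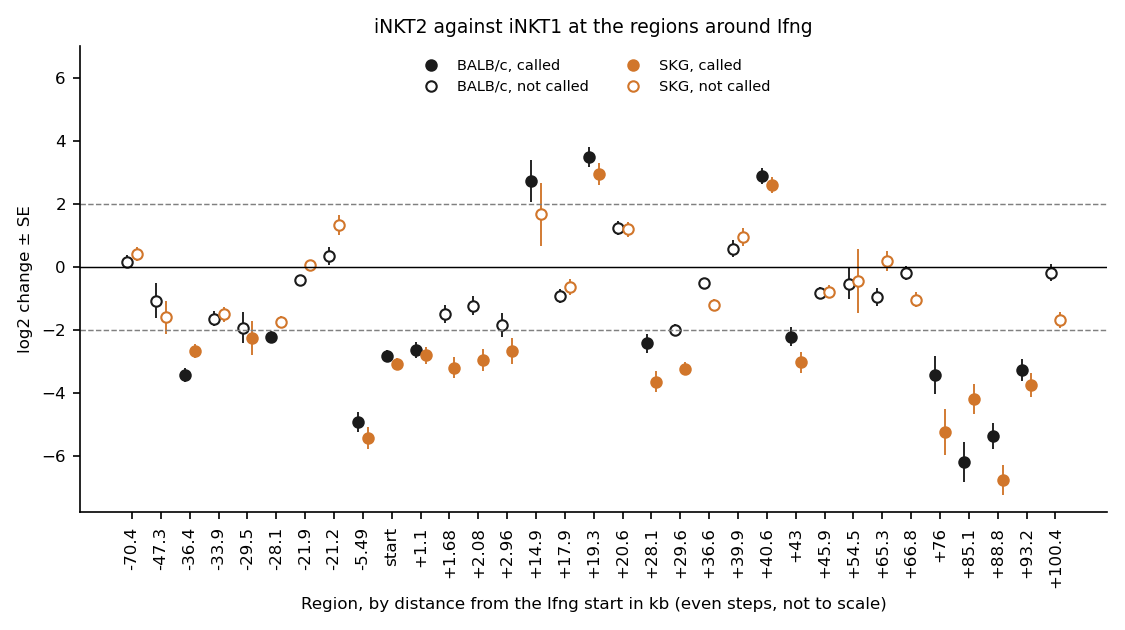
Log2 change of iNKT2 against iNKT1 cells (points, with SE) at each region in order of position, for BALB/c (black) and SKG (orange) mice. Filled points are called and dashed lines mark 4-fold. Points below the lower line run from 36.4 kb upstream to 93.2 kb downstream, and the filled points above the upper line are at 14.9 (BALB/c), 19.3 and 40.6 kb downstream.

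The start region held 61.3 and 61.4 CPM in BALB/c iNKT1, 73.8 and 71.4 in SKG iNKT1, 11.5, 7.46 and 7.21 in BALB/c iNKT2, and 9.96, 8.68 and 6.94 in SKG iNKT2 libraries. All 4 iNKT1 libraries lay far above all 6 iNKT2 libraries, and the 2 genotypes overlapped within iNKT2. The log2 change from iNKT1 to iNKT2 was -2.81 ± 0.186 (SE, adjusted p = 1.9e-08, edgeR) in BALB/c and -3.07 ± 0.190 (adjusted p = 1.6e-08) in SKG mice. The mean in iNKT2 cells was 8.72 ± 2.39 CPM in BALB/c and 8.53 ± 1.51 CPM in SKG mice, so the promoter was less open there but not at 0.

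Next to it in the first intron, the region 1.10 kb downstream held 14.6 and 14.9 CPM in BALB/c iNKT1, 18.7 and 19.4 in SKG iNKT1, 3.42, 1.93 and 1.81 in BALB/c iNKT2, and 3.60, 2.25 and 2.09 in SKG iNKT2 libraries. It followed the start region, with every iNKT1 library above every iNKT2 library. Its log2 change was -2.62 ± 0.260 (adjusted p = 6.6e-07, edgeR) in BALB/c and -2.80 ± 0.265 (adjusted p = 5.7e-07) in SKG mice.

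The other 3 regions in the gene were called lower in SKG mice and fell short of 4-fold in BALB/c mice. At 1.68 kb the libraries held 4.66 and 4.01 CPM in BALB/c iNKT1, 4.50 and 4.68 in SKG iNKT1, 1.63, 1.83 and 1.15 in BALB/c iNKT2, and 0.683, 0.321 and 0.405 in SKG iNKT2. At 2.08 kb they held 7.77 and 6.48, 6.17 and 5.32, 4.52, 2.30 and 2.35, and 1.04, 0.551 and 0.472 CPM in the same order. In both regions SKG iNKT2 libraries were the lowest group, with no overlap with BALB/c iNKT2. The log2 change from iNKT1 to iNKT2 at 1.68 kb was -1.48 ± 0.275 (adjusted p = 2.5e-04, edgeR) in BALB/c and -3.19 ± 0.330 (adjusted p = 1.4e-06) in SKG mice. At 2.08 kb it was -1.22 ± 0.297 (adjusted p = 2.2e-03) and -2.95 ± 0.359 (adjusted p = 6.7e-06). The region at 2.96 kb had means of 2.92 ± 0.641 and 4.40 ± 1.14 CPM in BALB/c and SKG iNKT1 and 0.802 ± 0.400 and 0.722 ± 0.265 CPM in iNKT2 cells, and its log2 changes were -1.83 ± 0.386 (adjusted p = 7.1e-04) and -2.67 ± 0.416 (adjusted p = 7.3e-05). The BALB/c change at 2.96 kb passed the call when BALB/c iNKT2 replicate 1 was left out (-2.14) and with quantile scaling (-2.81). Leaving out BALB/c iNKT1 replicate 1 or 2 gave log2 changes of -1.54 and -2.03.

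Upstream, the region at 5.49 kb, whose sequence with T-box letters is printed above, was nearly absent from iNKT2 cells. It held 30.3 and 30.9 CPM in BALB/c iNKT1, 23.1 and 25.4 in SKG iNKT1, 1.57, 0.794 and 0.618 in BALB/c iNKT2, and 0.862, 0.459 and 0.135 in SKG iNKT2 libraries. Every iNKT1 library exceeded every iNKT2 library, and replicate 1 was the highest of each iNKT2 group. The log2 change was -4.92 ± 0.321 (adjusted p = 1.7e-08, edgeR) in BALB/c and -5.43 ± 0.359 (adjusted p = 2.5e-08) in SKG mice, and -6.20 in SKG mice without SKG iNKT2 replicate 1. It was among the strongest regions of the locus in iNKT1 cells and lay lower, per kb, than the start region in iNKT2 cells.

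The region 36.4 kb upstream held 12.4 and 9.83 CPM in BALB/c iNKT1, 12.1 and 13.7 in SKG iNKT1, 1.35, 0.926 and 0.825 in BALB/c iNKT2, and 2.08, 2.02 and 1.96 in SKG iNKT2 libraries. The subsets did not overlap, and within iNKT2 the SKG libraries all lay above the BALB/c libraries. Its log2 change from iNKT1 to iNKT2 was -3.42 ± 0.228 (adjusted p = 2.0e-08, edgeR) in BALB/c and -2.66 ± 0.224 (adjusted p = 1.9e-07) in SKG mice.

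A region 28.1 kb upstream was called lower in BALB/c mice only, with a log2 change of -2.22 ± 0.191 (adjusted p = 1.7e-07, edgeR) against -1.74 ± 0.192 (adjusted p = 2.6e-06) in SKG mice. Its means were 13.1 ± 1.10 and 14.6 ± 0.242 CPM in BALB/c and SKG iNKT1 and 2.80 ± 0.311 and 4.32 ± 0.705 CPM in iNKT2 cells. With library totals in place of TMM factors the BALB/c change was -1.93, under 4-fold. The weak region 29.5 kb upstream was called lower in SKG mice, at -2.24 ± 0.545 (adjusted p = 3.0e-03), and lost the call without SKG iNKT1 replicate 1 (-1.41) or SKG iNKT2 replicate 1 (-1.90). In BALB/c mice it was just short of the call at -1.92 ± 0.486 (adjusted p = 2.9e-03), and passed it when BALB/c iNKT2 replicate 1 was left out (-2.25), with the replicate block (-2.04), with voom and limma (-2.07) and with quantile scaling (-3.24). Its adjusted p was over 0.01 with library totals (-1.63, adjusted p = 1.2e-02) and without BALB/c iNKT2 replicate 2 (-1.48, adjusted p = 2.2e-02). Without BALB/c iNKT2 replicate 3 it was 1.0e-02. Leaving out BALB/c iNKT1 replicate 1 or 2 gave log2 changes of -1.99 and -1.80. In the main fit both regions were lower in iNKT2 cells past the adjusted p in both genotypes.

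The region 21.9 kb upstream, at the distance of CNS-22, was the strongest of the locus in every group and showed the smallest difference between subsets among the 5 strongest iNKT1 regions. It held 80.3 and 83.4 CPM in BALB/c iNKT1, 79.7 and 84.4 in SKG iNKT1, 58.6, 64.1 and 64.5 in BALB/c iNKT2, and 78.9, 83.2 and 94.5 in SKG iNKT2 libraries. BALB/c iNKT2 libraries were the lowest, and the other 3 groups overlapped. The log2 change from iNKT1 to iNKT2 was -0.39 ± 0.122 (adjusted p = 1.2e-02, edgeR) in BALB/c, with a 95% interval of -0.63 to -0.15, and 0.06 ± 0.124 (adjusted p = 7.2e-01) in SKG mice, with an interval of -0.18 to 0.30. Identity with CNS-22 was not tested by sequence. Next to it, the weaker region 21.2 kb upstream was higher in SKG iNKT2 than in SKG iNKT1 cells at 1.35 ± 0.319 (adjusted p = 2.5e-03), under 4-fold.

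Downstream, 2 neighbouring regions between the gene and Ifngas1 were among the strongest in iNKT1 cells. At 28.1 kb the libraries held 50.8 and 44.0 CPM in BALB/c iNKT1, 51.5 and 63.1 in SKG iNKT1, 14.2, 5.90 and 6.35 in BALB/c iNKT2, and 6.15, 2.89 and 4.58 in SKG iNKT2. At 29.6 kb they held 38.0 and 37.5, 32.3 and 34.8, 12.3, 8.12 and 7.96, and 4.13, 2.99 and 3.57 CPM in the same order. At both, all iNKT1 libraries lay above all iNKT2 libraries, and BALB/c iNKT2 replicate 1 was the highest of the iNKT2 libraries.

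The log2 change at 28.1 kb downstream was -2.42 ± 0.305 (adjusted p = 6.8e-06, edgeR) in BALB/c and -3.63 ± 0.327 (adjusted p = 3.6e-07) in SKG mice. At 29.6 kb it was -2.00 ± 0.186 (adjusted p = 3.6e-07) in BALB/c mice, just short of 4-fold, and -3.22 ± 0.203 (adjusted p = 1.9e-08) in SKG mice, where it was called. Without BALB/c iNKT2 replicate 1 the BALB/c change at 29.6 kb was -2.21 and passed 4-fold.

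The regions at 19.3 and 40.6 kb downstream went the other way and were called higher in iNKT2 cells in both genotypes. At 19.3 kb the libraries held 0.777 and 1.54 CPM in BALB/c iNKT1, 0.578 and 1.41 in SKG iNKT1, 13.4, 14.2 and 10.8 in BALB/c iNKT2, and 7.70, 7.30 and 8.36 in SKG iNKT2. At 40.6 kb they held 1.28 and 1.15, 1.93 and 2.31, 6.90, 10.7 and 10.0, and 13.4, 11.9 and 13.7 CPM in the same order. Every iNKT2 library exceeded every iNKT1 library at both, but among iNKT2 cells the BALB/c libraries were the higher at 19.3 kb and the SKG libraries at 40.6 kb.

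The log2 change from iNKT1 to iNKT2 at 19.3 kb was 3.51 ± 0.312 (adjusted p = 2.4e-07, edgeR) in BALB/c and 2.96 ± 0.343 (adjusted p = 4.2e-06) in SKG mice, and 3.74 in SKG mice without SKG iNKT1 replicate 2. At 40.6 kb it was 2.91 ± 0.251 (adjusted p = 1.8e-07) and 2.61 ± 0.251 (adjusted p = 6.5e-07). A neighbour at 20.6 kb was also higher in iNKT2 cells past the adjusted p in both genotypes, at 1.26 ± 0.222 (adjusted p = 1.7e-04) and 1.21 ± 0.233 (adjusted p = 4.8e-04), without reaching 4-fold.

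The region 14.9 kb downstream was nearly absent from iNKT1 cells. It held 0.239 and 0.176 CPM in BALB/c iNKT1, 0.00 and 0.192 in SKG iNKT1, 1.10, 1.43 and 1.81 in BALB/c iNKT2, and 0.535, 0.0918 and 0.270 in SKG iNKT2 libraries. BALB/c iNKT2 was above the other 3 groups without overlap, although all of these levels are low. In BALB/c mice it was called higher in iNKT2 at a log2 change of 2.74 ± 0.662 (adjusted p = 2.1e-03, edgeR), and the call was lost without either BALB/c iNKT1 library (adjusted p = 2.3e-02 and 2.5e-02) and with quantile scaling. In SKG mice the 3 insertions in iNKT1 and 24 in iNKT2 libraries gave a ratio of 3.55, with a 95% exact interval of 1.08 to 18.4 that covers counting error only.

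Of the 7 regions in introns of Ifngas1, 4 were called lower in iNKT2 cells in both genotypes. The strongest, at 88.8 kb, held 18.6 and 21.7 CPM in BALB/c iNKT1, 28.8 and 25.9 in SKG iNKT1, 0.941, 0.159 and 0.371 in BALB/c iNKT2, and 0.416, 0.184 and 0.00 in SKG iNKT2 libraries. It was open in iNKT1 cells of both genotypes and close to 0 in all iNKT2 libraries. Its log2 change was -5.37 ± 0.415 (adjusted p = 6.7e-08, edgeR) in BALB/c and -6.75 ± 0.474 (adjusted p = 4.0e-08) in SKG mice, and -6.32 and -7.91 without the iNKT2 replicate 1 of the same genotype.

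At 93.2 kb the libraries held 3.64 and 3.61 CPM in BALB/c iNKT1, 4.24 and 4.68 in SKG iNKT1, 0.439, 0.291 and 0.412 in BALB/c iNKT2, and 0.475, 0.276 and 0.135 in SKG iNKT2. The subsets did not overlap, at log2 changes of -3.26 ± 0.340 (adjusted p = 1.1e-06, edgeR) and -3.74 ± 0.366 (adjusted p = 8.0e-07), the latter -4.33 without SKG iNKT2 replicate 1. At 85.1 kb they held 2.12 and 3.26, 6.30 and 5.32, 0.0941, 0.00 and 0.00, and 0.327, 0.138 and 0.539 CPM in the order BALB/c iNKT1, SKG iNKT1, BALB/c iNKT2, SKG iNKT2.

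Here the BALB/c iNKT2 libraries held 3 insertions in all, against 145 in BALB/c iNKT1, a ratio of iNKT1 to iNKT2 of 80.8 with a 95% exact counting interval of 27.1 to 397.0. The SKG change at 85.1 kb was -4.18 ± 0.466 on the log2 scale (adjusted p = 2.9e-06, edgeR), and the BALB/c region was called at an adjusted p of 8.8e-07. At 76.0 kb the values were 1.52 and 1.28, 2.25 and 2.25, 0.0314, 0.185 and 0.165, and 0.119, 0.00 and 0.00 CPM in that order. The log2 change at 76.0 kb was -3.42 ± 0.610 (adjusted p = 1.8e-04) in BALB/c mice. In SKG mice it was called at an adjusted p of 2.4e-05, and its 70 insertions in iNKT1 against 4 in iNKT2 libraries gave a ratio of 39.5 with a counting interval of 14.7 to 149.0.

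The remaining member called in both genotypes lay 43.0 kb downstream, before Ifngas1. It held 2.75 and 2.56 CPM in BALB/c iNKT1, 3.98 and 4.68 in SKG iNKT1, 0.439, 0.529 and 0.783 in BALB/c iNKT2, and 0.535, 0.459 and 0.607 in SKG iNKT2 libraries. The subsets did not overlap. Its log2 changes were -2.20 ± 0.308 (adjusted p = 1.9e-05, edgeR) and -3.02 ± 0.325 (adjusted p = 2.0e-06), and with library totals in place of TMM factors the BALB/c change was -1.93, under 4-fold.

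The 3 other Ifngas1 regions, at 65.3, 66.8 and 100.4 kb, were open in both subsets and were called in neither genotype. In SKG mice the region at 100.4 kb was lower in iNKT2 cells at -1.67 ± 0.265 (adjusted p = 8.7e-05, edgeR), under 4-fold. That at 66.8 kb was lower there at -1.03 ± 0.232 (adjusted p = 1.8e-03), and at -0.64 without SKG iNKT1 replicate 1. Among the 14 regions called in neither genotype, the log2 change lay between -1.64 and 1.26 in BALB/c and between -1.67 and 1.35 in SKG mice. They include the regions 33.9 kb upstream and 17.9, 36.6, 45.9, 66.8 and 100.4 kb downstream. These were lower in iNKT2 cells past the adjusted p in at least 1 genotype but by less than 4-fold. The region 70.4 kb upstream, the farthest on that side, had means of 5.21 ± 0.485 and 4.40 ± 0.231 CPM in iNKT1 and 5.90 ± 0.880 and 5.89 ± 0.922 CPM in iNKT2 cells of BALB/c and SKG mice.

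**Figure D3:**
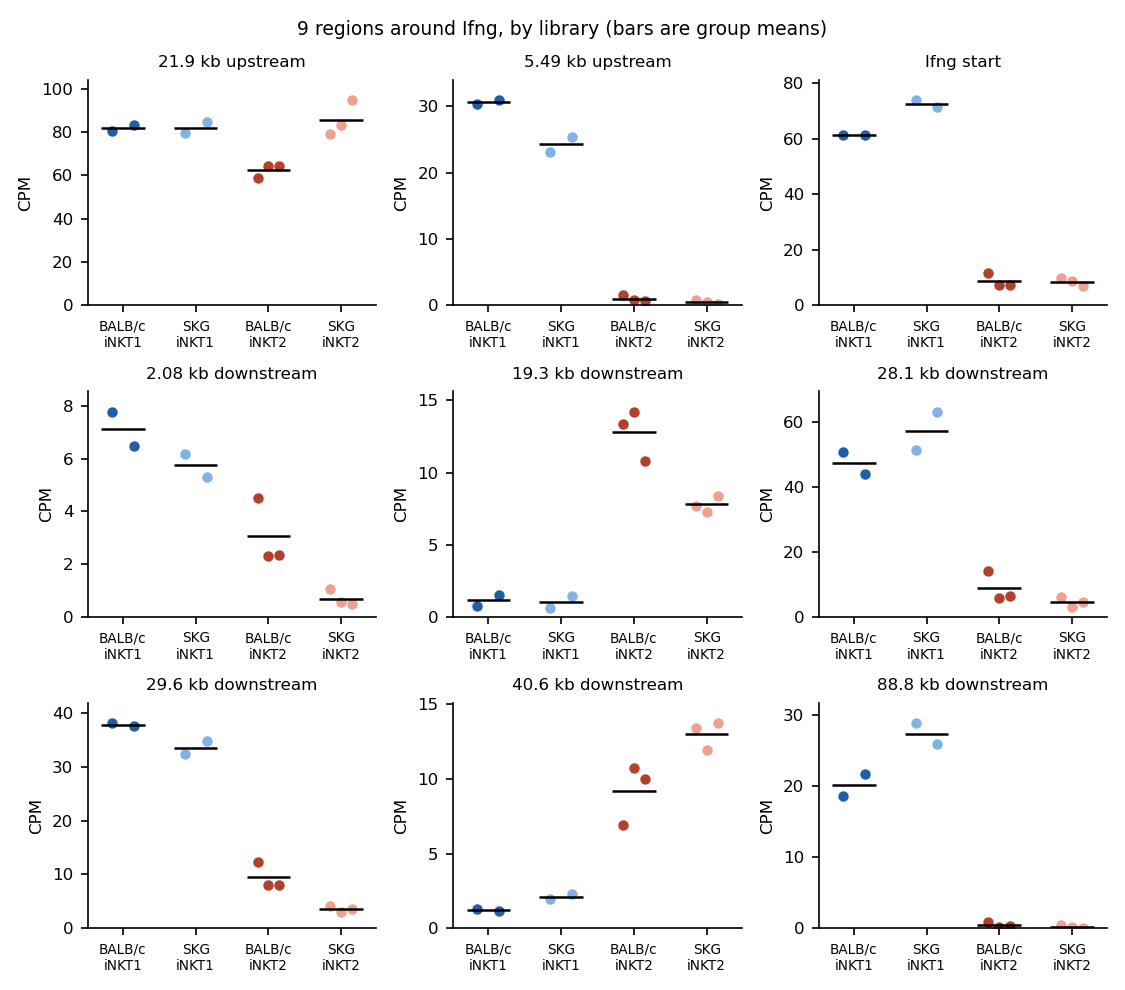
CPM in every library (points) with the group mean (bar) at 9 regions, in the order BALB/c iNKT1, SKG iNKT1, BALB/c iNKT2 and SKG iNKT2 in each panel, with axes from 0. The panels at 5.49 kb upstream, the start and 28.1, 29.6 and 88.8 kb downstream are high in iNKT1 and low in iNKT2, those at 19.3 and 40.6 kb downstream are the reverse, and that at 21.9 kb upstream stays between 58.6 and 94.5 CPM.

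Summed over the 33 regions, the libraries held 425.0 and 416.0 CPM in BALB/c iNKT1, 456.0 and 466.0 in SKG iNKT1, 193.0, 183.0 and 174.0 in BALB/c iNKT2, and 190.0, 190.0 and 204.0 in SKG iNKT2. All iNKT1 libraries lay above all iNKT2 libraries, and the ratio of the means was 2.30 in BALB/c and 2.36 in SKG mice. The sum is a description and was not tested. The 10 regions called lower in both genotypes made up 46.6% and 49.9% of it in BALB/c and SKG iNKT1 cells but 12.9% and 10.1% in iNKT2 cells. The region 21.9 kb upstream alone made up 19.4% and 17.8% in iNKT1 and 34.1% and 43.8% in iNKT2 cells.

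**Figure D4:**
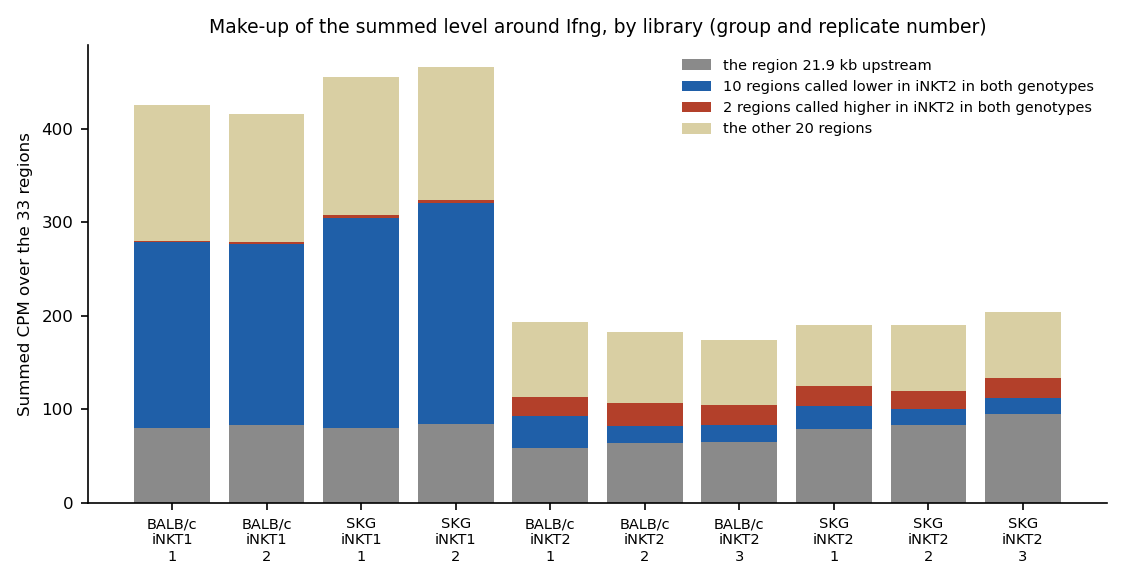
Summed CPM over the 33 regions in each library (bars from 0), split into the region 21.9 kb upstream (grey), the 10 regions called lower (blue) and the 2 called higher (red) in iNKT2 cells in both genotypes, and the others (beige). The blue part sums to 193.0 to 236.0 CPM in iNKT1 and 17.0 to 34.0 CPM in iNKT2 libraries, while the grey part ranges from 58.6 to 94.5 CPM.

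The second question was whether the locus differed between SKG and BALB/c mice within a subset. In iNKT1 cells 0 of the 33 regions were called higher or lower in SKG mice (against 0.281% and 0.732% of all regions, edgeR), and 0 passed the adjusted p at any fold (0.662% and 1.42%). At an unadjusted p under 0.05 there were 6 higher (18.2%, against 6.38% of all regions) and 1 lower (3.03%, against 10.7%). The start region changed by a log2 of 0.24 ± 0.197 (adjusted p = 6.1e-01), with a 95% interval of -0.14 to 0.63, and its 2 SKG libraries lay above its 2 BALB/c libraries. The nearest to a call were the regions at 54.5 kb downstream, at -3.22 ± 0.776 (adjusted p = 2.4e-02), and at 100.4 kb, at 1.29 ± 0.287 (adjusted p = 1.5e-02).

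In iNKT2 cells 3 of the 33 regions were called lower in SKG mice (9.09%, against 4.73% of all regions) and 0 higher (against 0.252%). Without a limit on the fold, 5 were lower (15.2%, against 10.1%) and 3 higher (9.09%, against 4.02%). The 3 called were those at 2.08, 14.9 and 54.5 kb downstream. This test did not pair libraries by replicate number, and a fit with a replicate block also called 3 lower and 0 higher. The start region changed by -0.02 ± 0.177 on the log2 scale (adjusted p = 9.5e-01), with a 95% interval of -0.37 to 0.33.

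At 2.08 kb, in an Ifng intron, the log2 change was -2.05 ± 0.335 (adjusted p = 4.0e-04, edgeR), from a mean of 3.06 ± 1.27 to 0.688 ± 0.308 CPM. It was below 4-fold when BALB/c iNKT2 replicate 1 was left out (-1.64), as it was on leaving out replicate 2 or 3 of SKG iNKT2 (both -1.89). With voom and limma, which the study used, it was -1.96 (adjusted p = 3.2e-03), also below 4-fold. At 14.9 kb it was -2.14 ± 0.549 (adjusted p = 9.5e-03), from 1.45 ± 0.358 to 0.299 ± 0.223 CPM, and -3.07 without SKG iNKT2 replicate 1. That call was lost when replicate 2 or 3 of either iNKT2 group was left out (adjusted p from 2.8e-02 to 3.8e-02) and with library totals (-2.24, adjusted p = 1.1e-02).

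The region 54.5 kb downstream was low in SKG cells of both subsets. It held 1.52 and 1.54 CPM in BALB/c iNKT1, 0.128 and 0.192 in SKG iNKT1, 1.79, 0.635 and 0.783 in BALB/c iNKT2, and 0.0297, 0.230 and 0.135 in SKG iNKT2 libraries. No SKG library overlapped a BALB/c library in either subset, and the subsets overlapped within each genotype. In iNKT2 cells the log2 change was -3.13 ± 0.634 (adjusted p = 2.1e-03, edgeR), -2.53 when BALB/c iNKT2 replicate 1 was left out, and -2.46 and -3.98 on leaving out replicate 1 and replicate 2 of SKG iNKT2. The SKG groups held 5 and 8 insertions in all, against 86 and 100 in the BALB/c groups. With quantile scaling (voom and limma) none of the 3 regions was called, at log2 changes of -1.99, -2.00 and -2.46 (adjusted p = 5.7e-03, 2.8e-02 and 4.3e-02).

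Past the adjusted p but under 4-fold in iNKT2 cells, the regions at 1.68 and 29.6 kb downstream were lower in SKG mice, at -1.63 ± 0.319 (adjusted p = 1.6e-03, edgeR) and -1.40 ± 0.189 (adjusted p = 7.9e-05). The change at 1.68 kb was -2.11, past the call, when SKG iNKT2 replicate 1 was left out. Its adjusted p was over 0.01 in the fit of only the groups compared (-1.65, adjusted p = 1.1e-02, edgeR) and with quantile scaling (-1.45, adjusted p = 2.2e-02, voom and limma). The 3 regions higher in SKG iNKT2 cells were those at 36.4 kb upstream, at 0.96 ± 0.235 (adjusted p = 7.2e-03), 21.9 kb upstream, at 0.45 ± 0.111 (adjusted p = 7.1e-03), and 65.3 kb downstream, at 1.18 ± 0.270 (adjusted p = 4.7e-03). Their libraries did not overlap between the genotypes, but none of these 3 stayed under an adjusted p of 0.01 throughout. At 36.4 kb upstream it was 1.5e-02 with the replicate block, 1.6e-02 with voom and 2.9e-02 with library totals, and over 0.01 when any of 5 of the 6 iNKT2 libraries was left out. At 21.9 kb upstream it was 1.5e-02 with library totals and 1.1e-01 with quantile scaling (log2 change 0.18), and again over 0.01 in 5 of 6 cases of a library left out. At 65.3 kb it was 1.9e-02 with library totals and over 0.01 in 4 of the 6 cases. The region 85.1 kb downstream, with 3 insertions in BALB/c and 22 in SKG iNKT2 libraries, had a ratio of 9.81 (exact counting interval 2.95 to 51.2) and an adjusted p of 1.1e-02. All 3 of its BALB/c insertions came from BALB/c iNKT2 replicate 1, so its change rests on that library.

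**Figure D5:**
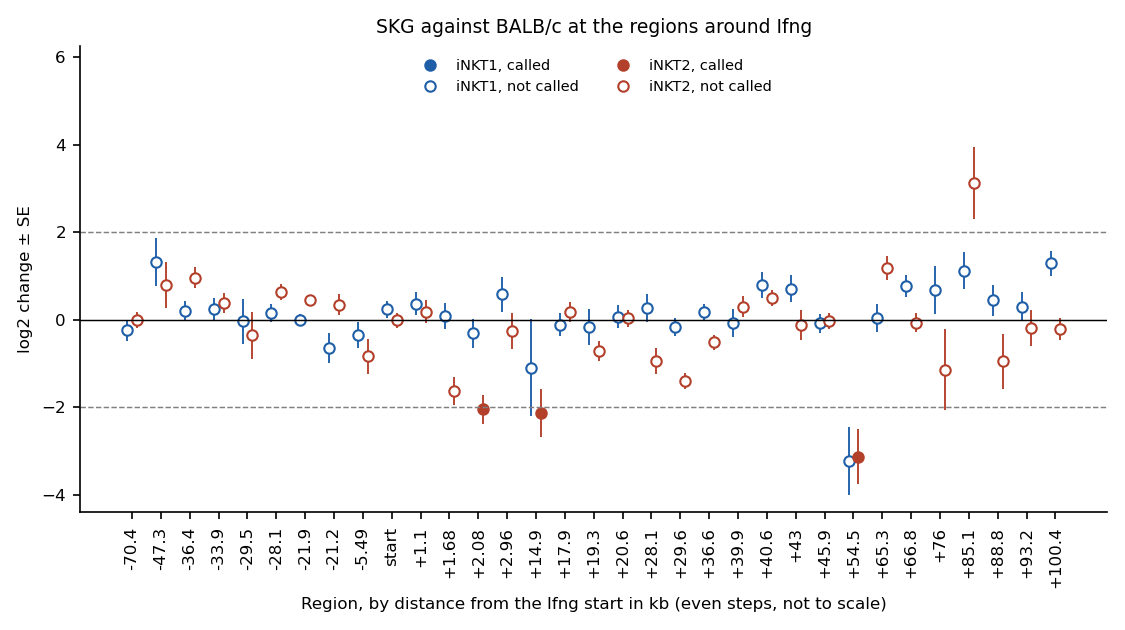
Log2 change of SKG against BALB/c cells (points, with SE) at each region in order of position, within iNKT1 (blue) and iNKT2 (red) cells. Filled points are called and dashed lines mark 4-fold. No iNKT1 point is filled, and the filled iNKT2 points lie at 2.08, 14.9 and 54.5 kb downstream.

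Whether the genotype acted differently in the subsets was tested as an interaction, in which the iNKT1 change between genotypes is subtracted from the iNKT2 change. Of the 33 regions, 0 were called higher or lower (against 0.189% and 0.341% of all regions, edgeR), with 4 higher (12.1%, against 10.2%) and 7 lower (21.2%, against 9.66%) at an unadjusted p under 0.05. At an adjusted p under 0.05 there were 0 higher (against 1.97%) and 3 lower (9.09%, against 2.17%), at 1.68, 29.6 and 100.4 kb downstream. The 2 genotype contrasts share no library. The region at 2.08 kb, called in iNKT2 and not in iNKT1 cells, had an interaction of -1.73 ± 0.475 (adjusted p = 5.2e-02), so a different change in the subsets was not shown at the threshold. At 54.5 kb the change was -3.22 in iNKT1 and -3.13 in iNKT2 cells. At the strong region 28.1 kb downstream it was 0.27 ± 0.328 (adjusted p = 7.6e-01) in iNKT1 and -0.94 ± 0.305 (adjusted p = 3.4e-02) in iNKT2 cells.

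Other genes of the interferon-gamma pathway were examined through the 259 regions in or within 20 kb of 14 genes. Neighbouring genes share some of these regions, which are given under each gene. From iNKT1 to iNKT2 cells 67 were called lower (25.9%, against 6.36% of all regions) and 9 higher (3.47%, against 15.5%) in BALB/c mice, and 53 lower (20.5%, against 6.96%) and 12 higher (4.63%, against 10.2%) in SKG mice. The median log2 change of the 259 was -0.87 in BALB/c and -0.48 in SKG mice, beside 0.06 and 0.14 for all regions. Among factors that act on Ifng, Tbx21, which encodes T-bet, had 15 of 23 regions lower in BALB/c and 13 in SKG mice, Stat4, which relays IL-12, had 12 and 8 of 28, and Runx3 had 8 and 7 of 25. Hlx and Eomes had 0 called in either direction of 6 and 5, and Irf1 had 2 of 15 lower in each genotype.

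Among the receptors that induce Ifng, Il12rb2, the inducible chain of the IL-12 receptor, had 10 of 21 regions lower in BALB/c and 11 in SKG mice, while Il12rb1 had 0 of 17. The IL-18 receptor genes Il18rap and Il18r1 had 7 and 4 of 12 and 22 lower in BALB/c, and 5 and 2 in SKG mice. The receptor for interferon-gamma itself was divided: Ifngr1, the ligand-binding chain, had 9 of 19 regions lower in BALB/c and 5 in SKG mice, whereas Ifngr2, the partner chain, had 7 and 8 of 15 higher. The kinase genes Jak1 and Jak2 had 4 of 47 lower and 1 of 11 higher in BALB/c mice. Between genotypes, the calls among the 259 were 1 lower in iNKT1 (0.386%, against 0.732% of all regions) and 3 lower in iNKT2 cells of SKG mice (1.16%, against 4.73%), and 0 higher in either (against 0.281% and 0.252%, edgeR).

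The regions elsewhere in the genome with the pattern most like the Ifng start, by Pearson r of log2(CPM + 1) over the 10 libraries, had their nearest protein-coding genes at Stk10, Snx20 and Rapgef1 (r = 0.999 each) and at Commd8 and Rcsd1 (0.998 each). Such likeness was common, since 3512 of the 34473 regions screened had an r over 0.95, and the libraries fall into the same subsets for all of them. The region nearest Snx20 held a mean of 17.1 CPM in BALB/c iNKT1 and 0.750 CPM in BALB/c iNKT2 cells.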

How the data were processed

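By the study's methods, the authors mapped paired ATAC-seq reads to mm10 with Bowtie 1.0 (also named in the submitters' processing notes), removed mitochondrial and duplicate reads, called summits with MACS2 on subnucleosomal fragments of each replicate, widened and merged them over all replicates, left out blacklisted regions and those on chromosome Y, and counted insertions in each region. These counts stand in the deposited table as whole numbers, 1 column per library, although its name speaks of normalized counts. Many regions were narrower than the uniform width the methods state, and the reason was not tested. All 94823 regions lay inside the GRCm38 chromosomes, and 14.9% held a protein-coding start, against 1.35% after a shift of 1 Mb. Libraries were assigned to groups by their titles.

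Counts were analysed without a filter in edgeR 4.0.16 (R 4.3.3), with TMM factors (0.893 to 1.19), 1 mean per group over the 10 libraries, and quasi-likelihood F tests for 5 contrasts, adjusted by Benjamini-Hochberg over all regions. The call, an adjusted p under 0.01 and at least 4-fold, follows the study, which used voom and limma. Standard errors were derived from the F statistic, and 95% intervals of log2 changes from the normal distribution. With so few libraries these intervals are narrower than the F tests allow. Alternatives used limma 3.58.1, DESeq2 1.42.0, other scalings, filters, thresholds, windows and sets of libraries. The code was tested on simulated counts. Genes come from GENCODE M21 and sequences from the RefSeq GRCm38 genome. Named in full were regions called in any contrast, the start region and regions in Ifng. Regions like the start region were sought at over 1 Mb with a mean of at least 5 CPM. The window, the lists, the motifs and the tests were chosen with earlier results of these data known. Some genes of the lists are not reported here.

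Libraries of the 4 groups share replicate numbers. Between SKG and BALB/c iNKT2 cells, deviations from the group means of same-numbered libraries correlated at 0.517, 0.181 and 0.224 over regions, so these numbers were taken as pairs, although replicate 2 of each group correlated better with replicate 3 of the other (0.308 and 0.201). The main fit held no replicate block, so its SEs and p-values between SKG and BALB/c iNKT2 cells leave this pairing out. A fit with the block was run as an alternative. In the other contrasts the correlations were 0.161 and 0.119 or below with 2 numbers shared, and the numbers were not taken as pairs. The depth outside the listed regions is not given in the table, which limits precision at the weakest regions.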

Additional observations from a re-analysis of the deposited data

Results flagged for a closer look

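At 3 regions the genotype change differed between iNKT2 and iNKT1 cells at an adjusted p under 0.05, though not under 0.01 (edgeR interaction over all regions). All 3 had the lower value in iNKT2 cells (9.09% of the 33, against 2.17% of all regions), and 0 were higher (against 1.97%). At 1.68 kb downstream, inside Ifng, the difference was -1.71 ± 0.440 on the log2 scale (adjusted p = 4.0e-02), with SKG against BALB/c changes of 0.08 in iNKT1 and -1.63 in iNKT2 cells. At 29.6 kb downstream it was -1.22 ± 0.277 (adjusted p = 2.3e-02), with changes of -0.17 and -1.40. At 100.4 kb downstream, in an intron of Ifngas1, it was -1.50 ± 0.378 (adjusted p = 3.7e-02), with changes of 1.29 and -0.21. There the libraries held 2.48 and 2.60 CPM in BALB/c iNKT1, 5.72 and 6.74 in SKG iNKT1, 2.63, 1.85 and 2.31 in BALB/c iNKT2, and 1.99, 2.43 and 1.35 in SKG iNKT2, so that SKG iNKT1 alone stood above the rest. With 1 of the 4 iNKT1 libraries left out the adjusted p rose over 0.05 at all 3 regions, up to 0.17, 0.11 and 0.15.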

How the results depend on the processing

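The 33 regions gave 56 pairs of region and contrast past an adjusted p of 0.01, of which 34 were called, and 0 of the 56 changed direction under any alternative run. DESeq2 and a fit of only the groups compared kept all 56 on the same side of the call, library totals without TMM factors lost 3, voom and limma lost 1 and gained 2, and quantile scaling with voom lost 4 and gained 2. The filter on low mean counts left 47 pairs, all kept. Leaving out 1 library at a time kept 271 of 288, gained 6 and lost 11. Whatever the fold, 16 of the 56 pairs rose over an adjusted p of 0.01 under at least 1 alternative, 9 of them with library totals, 7 with quantile scaling, 4 with the filter, 4 in the fit of only the groups compared, 2 with the replicate block and 1 with voom. In the called set 7 pairs were not called under at least 1 alternative, and those are named with their values in the text above. For the difference between BALB/c subsets, 17 regions were lower at an adjusted p under 0.05 and 2-fold, 19 with no limit on the fold, and 7 within 50 kb, against 11. For the SKG subsets 4 were higher under each of the first 2 settings, against 2. Between genotypes in iNKT1 cells, 1 region was higher and 1 lower at 0.05 and 2-fold, and 1 was lower in a fit of only these groups, against 0. The replicate block also gave 1 lower there, at 54.5 kb downstream (-3.19), and called the region 29.5 kb upstream between BALB/c subsets (-2.04), where numbers were not taken as pairs. In iNKT2 cells, where they were, the block changed no 4-fold call but put the region 36.4 kb upstream at an adjusted p of 1.5e-02.

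In iNKT2 cells 1 region was higher in SKG mice with DESeq2 and with quantile scaling, 0 to 1 when 1 library was left out (1 on leaving out replicate 1 of BALB/c iNKT2 or replicate 2 of SKG iNKT2), 2 at 0.05 and 2-fold, and 3 with no limit on the fold, against 0. Lower regions numbered 1 with the filter, which removed 2 of the 3 by construction, 0 with quantile scaling, 1 to 4 when 1 library was left out (1 without SKG iNKT2 replicate 2 or 3, and 4 without replicate 1), and 5 under either looser threshold, against 3. The interaction gave 3 lower at 0.05 and 2-fold, against 0. The genotype change of the start region in iNKT2 cells, -0.02, was 0.02 with voom, 0.05 with quantile scaling, 0.23 when BALB/c iNKT2 replicate 1 was left out and 0.10 when replicate 3 of SKG iNKT2 was, the full range on leaving out 1 library being -0.19 to 0.23. Summed levels with library totals were 387.0 and 414.0 CPM in BALB/c and SKG iNKT1 and 205.0 and 198.0 CPM in BALB/c and SKG iNKT2 cells, the last pair in the reverse order of the TMM values (183.0 and 195.0), and within 50 kb 378.0, 400.0, 169.0 and, in SKG iNKT2 cells, 179.0 CPM. The causes of these shifts were not tested. The table gives no depth outside its regions, and regions under about 1 CPM rest on few insertions.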
